A study of Mus musculus with 4 samples.

Results

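The genes described here are 8 mouse genes known from the oocyte and from the maternal supply that an egg hands to the embryo: Nlrp4f, Khdc3, Zp3, Gdf9, Npm2, Oosp1, Zar1 and Figla. They were picked by name, with earlier results of these arrays known, out of 27602 genes on the array. All 8 were on it, with 10 probes between them. Khdc3 was found under its older array name, 2410004A20Rik. A low-signal filter was passed by 17172 genes of the array and by 7 of the 8 members, the exception being Zar1.

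The study hybridised total RNA to 4 Agilent arrays of long oligonucleotide probes, read in 2 colours. The green channel held RNA of CGR8.8, a mouse embryonic stem (ES) cell line, on all 4 arrays. The red channel held RNA of mouse embryonic fibroblasts (MEFs) on 2 arrays and of a single clone of induced pluripotent stem (iPS) cells on the other 2. MEFs had gone through several passages, the iPS clone was taken 30 days after transduction, and ES and iPS cells were grown with 1000 IU/ml leukemia inhibitory factor. Treatment labels of the MEF arrays also carry the text on the iPS clone at 30 days after transduction. That was taken as a copy error, and the groups follow the RNA source named for the red channel. The labels used here do not give the strain of the cells, the transduced factors, or whether replicate RNAs came from separate cultures. The spread between replicates may therefore be partly technical. The arrays ask how close the iPS clone came to ES cells in its transcripts, and how far from fibroblasts.

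During growth an oocyte stores RNAs and proteins that carry the embryo through fertilization and the first cleavages, before its own genome is transcribed. Khdc3, also called Filia, is a subunit of the subcortical maternal complex, a protein assembly under the egg membrane that also holds Nlrp5, Ooep and Tle6, and Nlrp4f is an oocyte Nlrp protein associated with it. Zp3 is a glycoprotein of the zona pellucida, the coat to which sperm bind, and Figla is the basic helix-loop-helix factor that drives the zona genes in oocytes. Gdf9 is a growth factor that oocytes secrete to the surrounding granulosa cells, Npm2 is a nuclear chaperone of the egg, Zar1 is needed at the oocyte-to-embryo transition, and Oosp1 is a secreted oocyte protein. Khdc3 is also known as a gene of ES cells.

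On each array, 61.8% to 63.2% of gene probes lay well above background in green and 60.9% to 63.1% in red, and the log2 ratios of replicate arrays correlated across genes at 0.991 (MEF) and 0.994 (iPS). The labelled cell types were matched by their markers. All 6 ES and iPS cell markers (Pou5f1, Sox2, Nanog, Zfp42, Esrrb, Fbxo15) were called lower in MEFs than in ES cells, and all 8 fibroblast markers higher, with medians of -3.94 and 4.80 on the log2 scale. In iPS cells over ES cells, 4 of the 6 ES and iPS cell markers were called higher (Sox2 1.19, Nanog 2.27, Esrrb 2.98, Fbxo15 3.54), Pou5f1 was called lower at -1.35, and Zfp42 had -0.60, not called, with a median of 1.73. Their part in the ratios of the members was not tested. Of the 8 fibroblast markers, 7 were called lower in iPS cells. These values come from the brightest probe of each gene, and other probes that passed the filter did not all match. In MEFs such probes gave -0.17 for Esrrb, 0.54 for Col1a2 and 1.89 for Col3a1. They gave -6.05 for Zfp42, 3.14 for Thy1, 3.51 for Fbn1, and 3.48 and 3.36 for Col1a1. In iPS cells such probes gave 1.06 for Esrrb, -1.35 for Zfp42, -0.09 for Col1a2, -0.09 for Col3a1 and 0.17 for Thy1. For Fbn1 the value was -0.81 there, and for Col1a1 -2.98 and -0.49. Here and below, a called gene has a limma p, adjusted by Benjamini-Hochberg over all genes, under 0.05 and a fold of at least 2. Ratios are log2 red over green, so a value above 0 means more signal than in ES cells, and errors are standard errors from limma with n = 2 arrays in each group.

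In the iPS clone, Khdc3 stood 55.0-fold, Zp3 5.37-fold and Npm2 2.32-fold above ES cells. Nlrp4f stood far above them too. Its fitted fold of 75.1 rests on an ES signal that was well above background on 1 of 4 arrays, so neither its size nor its place above Khdc3 is firmly measured. Gdf9 lay close to ES cells, and Figla and Oosp1 gave no red signal well above background in iPS cells. Both iPS ratios lay above both MEF ratios in 6 of the 7 members measured, the exception being Oosp1, where both lay below. Figla is among the 6 although its red signal was not well above background in MEFs either. Nlrp4f passed the filter through iPS cells alone, Oosp1 through MEFs alone and Figla through ES cells alone. A higher signal in that RNA is no separate observation for them. Of all genes measured, 45.9% had both iPS ratios above both MEF ratios and 44.2% had both below. Khdc3, Zp3, Gdf9 and Npm2 lay below 0 on both MEF arrays and above 0 on both iPS arrays, a pattern held by 21.5% of all genes. The values were known when the members were picked, so they are given as a description without a test. In RNA of a whole culture, fewer cells with a transcript and less transcript per cell cannot be told apart.

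**Figure D1:**
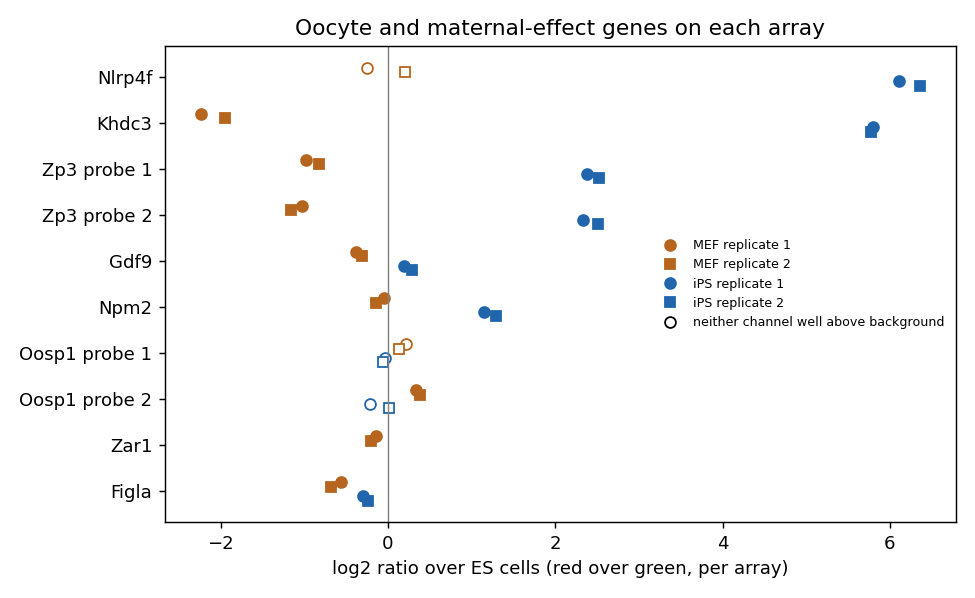
Log2 ratio over ES cells (x axis) of each member probe on the 2 MEF arrays (brown) and the 2 iPS arrays (blue), 1 point per array. Nlrp4f and Khdc3 lie between 5.77 and 6.35 on the iPS arrays, Zp3 between 2.33 and 2.52 on both of its probes, and Zar1 has points for MEFs alone because its iPS spots were marked by the scanner software.

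The subunits and partners of the subcortical maternal complex gave the highest ratios among the members. The Khdc3 probe lies at chr9:72901482-72901541 on the plus strand (mm8, the build of the array annotation). Its unnormalized red signal was 34200 and 34300 on the iPS arrays, over local backgrounds of 49 and 44. On the MEF arrays it was 61.3 and 65.9, over backgrounds of 50 and 51.5, and was not well above background on either. ES cells gave 204 and 202 on the MEF arrays and 372 and 360 on the iPS arrays, well above background on all 4. Khdc3 was thus measured in ES cells, far brighter in the iPS clone, and not measurable in MEFs. The log2 ratios were -2.24 and -1.95 in MEFs and 5.79 and 5.77 in iPS cells, with means of -2.09 ± 0.071 and 5.78 ± 0.071.

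Because MEFs gave Khdc3 no signal well above background, the fold against them is a bound. Read as ratios to the ES channel of the same arrays, the signal was at least 3.94-fold higher in ES cells than in MEFs and at least 217-fold higher in iPS cells than in MEFs, where the fit gave 4.27-fold and 235-fold. Such bounds carry any dye bias. Set directly against each other, without the ES channel, the red signals of iPS cells and MEFs gave a bound of 429-fold. The ES signal itself was not level across arrays. After normalization, the green Khdc3 signal was 1.98-fold higher on the iPS arrays than on the MEF arrays, and 5 of the 17172 genes had a larger difference in that direction. Its part in the iPS ratio was not tested.

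The Nlrp4f probe lies at chr13:65192190-65192249 on the minus strand (mm8). Its red signal was 7310 and 8120 in iPS cells and 55.3 and 55.8 in MEFs, where the local background was 49 and 44.5. ES cells gave 28.8 and 20.2 on the MEF arrays and 39.6 and 30.8 on the iPS arrays, and 1 of these 4 spots, on the array of iPS replicate 1, was well above background. Nlrp4f was therefore bright in the iPS clone and at or near background in both other cell types. The log2 ratios were 6.11 and 6.35 in iPS cells, with a mean of 6.23 ± 0.11, and -0.26 and 0.20 in MEFs, which lie on either side of 0. The iPS clone exceeded MEFs by at least 73.2-fold. The size of the iPS ratio over such dim ES spots differed between ways of processing. The authors' deposited log ratio, made by the scanner software with its own background and dye steps and turned here to log2, gave 8.24 and 9.20, while normexp fitted over all spots gave a mean of 6.22.

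**Figure D2:**
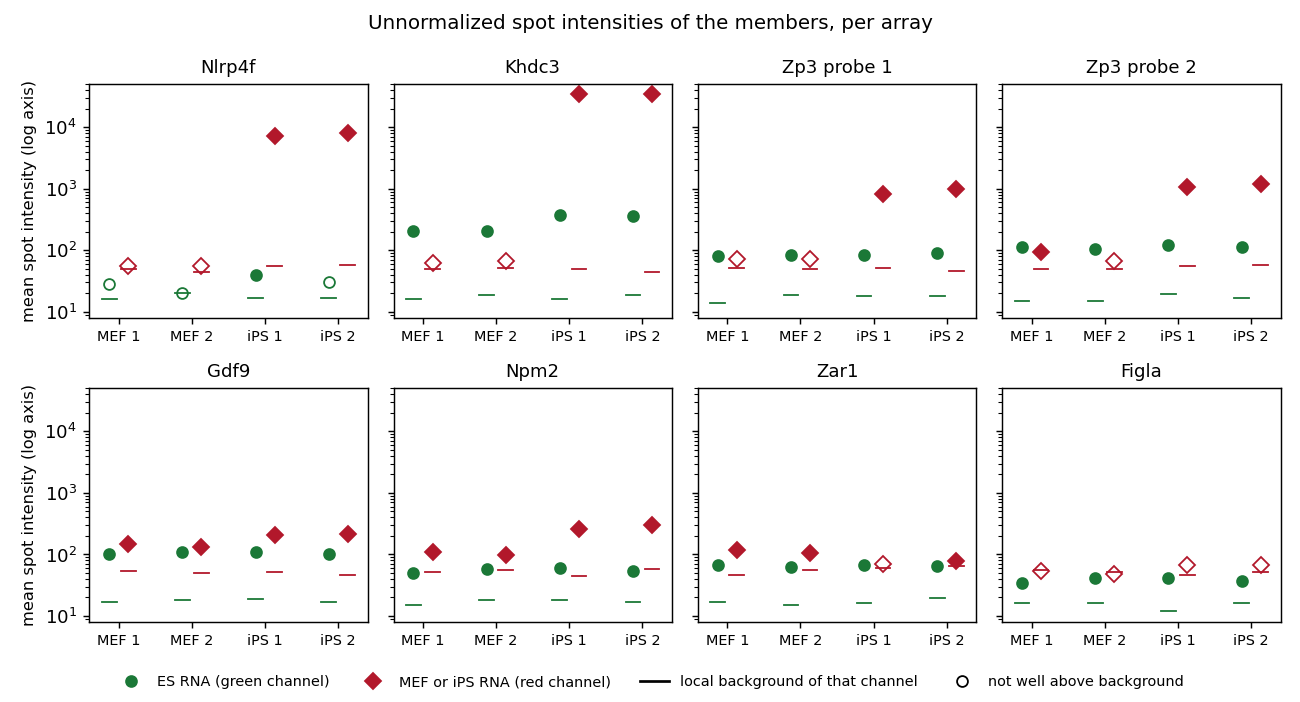
Unnormalized mean spot intensity (log axis) of 8 member probes on each array, with ES RNA in green circles, MEF or iPS RNA in red diamonds and the local background of each channel as a short line. Open symbols were not well above background. Khdc3 and Nlrp4f reach 34300 and 8120 in iPS cells, and the ES circles of Khdc3 lie near 204 on the MEF arrays and near 372 on the iPS arrays.

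The 250 bases before the RefSeq start were read for every member with a promoter window, whatever its ratio. RefSeq promoter windows on GRCm38.p6 were found for 6 of the 8 members (Nlrp4f, Khdc3, Zp3, Oosp1, Zar1, Figla). Nlrp4f and Khdc3 are shown because they had the highest ratios, at chr13:65205717-65205966 (minus strand) and chr9:73102148-73102397 (plus strand). Each is written in the direction of transcription with its last base next to the start, and capitals mark every E-box, CANNTG, the kind of site that Figla is known to bind.
Nlrp4f promoter: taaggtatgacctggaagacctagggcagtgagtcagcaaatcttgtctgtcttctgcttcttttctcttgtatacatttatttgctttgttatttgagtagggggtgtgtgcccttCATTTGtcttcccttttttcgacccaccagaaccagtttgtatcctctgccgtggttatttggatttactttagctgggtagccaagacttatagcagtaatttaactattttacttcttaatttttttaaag
Khdc3 promoter: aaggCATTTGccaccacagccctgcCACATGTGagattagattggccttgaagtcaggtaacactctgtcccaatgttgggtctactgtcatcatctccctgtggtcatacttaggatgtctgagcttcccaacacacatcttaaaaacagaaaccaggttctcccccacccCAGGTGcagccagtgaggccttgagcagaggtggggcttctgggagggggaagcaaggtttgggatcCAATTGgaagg
The Nlrp4f window held 1 E-box, 133 bases before the start, and the Khdc3 window 5, of which 2 overlap. All 6 member windows held at least 1, against 66.2% of 32851 RefSeq promoters with a window of the same length, and the motif reads the same on both strands. TAATTG, an element known to be bound by the oocyte factor Nobox, and TCCCGC, an E2F site, were each searched on both strands. Neither was found in the 6 windows, against 7.17% and 16.9% of all windows. The C and G content was 38.4% at Nlrp4f and 52.4% at Khdc3, where the median of all windows was 52.4%, and CpG pairs numbered 2 and 0.

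The zona gene Zp3 was the third member with a high ratio in the iPS clone, and 2 probes measured it. They are shown because they are not independent: capitals mark the 30 bases that both share. The first spans chr5:136272217-136273067 and the second lies at chr5:136273038-136273097 (mm8, plus strand), so the first reaches across an intron.
Zp3 probe 1: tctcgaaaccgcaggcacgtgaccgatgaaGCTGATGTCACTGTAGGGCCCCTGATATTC
Zp3 probe 2: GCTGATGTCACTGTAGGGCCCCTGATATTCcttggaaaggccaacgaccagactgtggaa
Joined, they give 90 bases, which read as 30 codons without a stop in the frame of the first base. The other 2 frames hold 3 and 2 stops. In iPS cells, the red signal was 828 and 991 on probe 1 and 1060 and 1200 on probe 2. In MEFs it was 72.3 and 71.9 on probe 1, not well above background, and 92.7 and 68.0 on probe 2, where 1 of the 2 arrays, that of MEF replicate 1, was well above background. ES cells gave 80.1, 85.3, 84.9 and 89.1 on probe 1 and lay well above background on all 4 arrays with both probes. On probe 2 they gave 112 on the array of MEF replicate 1 and 124 and 113 on the iPS arrays, and on the array of MEF replicate 2 they lay 90 above a local background of 15.

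On probe 2, the brighter one, which stands for the gene, the log2 ratio of Zp3 was 2.33 and 2.52 in iPS cells (mean 2.42 ± 0.062). In MEFs it was -1.02 and -1.15 (mean -1.09 ± 0.062). Probe 1 gave 2.38 and 2.52 in iPS cells and -0.98 and -0.83 in MEFs, with means of 2.45 and -0.90. On probe 1 the iPS clone was at least 10.2-fold above MEFs. The groups did not overlap on either probe, and ES cells lay between iPS cells and MEFs on all 4 arrays. The Zp3 window of 250 bases before the start, chr5:135979855-135980104 on the plus strand of GRCm38.p6, is shown because an E-box of the zona genes is the known site of action of Figla.
Zp3 promoter: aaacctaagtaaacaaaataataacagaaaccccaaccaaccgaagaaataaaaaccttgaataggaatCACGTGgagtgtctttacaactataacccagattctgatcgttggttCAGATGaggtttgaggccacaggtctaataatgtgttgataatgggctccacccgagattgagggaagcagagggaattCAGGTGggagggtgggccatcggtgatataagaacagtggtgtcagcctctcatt
It held 3 E-boxes, in capitals, at 181, 134 and 55 bases before the start. The one at 181 reads CACGTG, a form found in 6.02% of all windows and in 1 of the 6 member windows.

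The other zona genes and Figla itself were dim. Zp1 and Zp2 were not well above background on any array. The Figla probe, at chr6:85986535-85986594 (mm8), gave a red signal of 53.0 and 48.8 in MEFs and 68.7 and 67.8 in iPS cells, not well above background on any of the 4 arrays. ES cells gave 34.7, 41.3, 42.0 and 37.1, well above a green background of 12 to 16 on all 4. Figla passed the filter through ES cells alone, so its higher signal in ES cells is no separate observation. That signal was at least 1.24-fold higher in ES cells than in MEFs. Against iPS cells it was 1.21-fold higher, a bound equal to the fit. The log2 ratios were -0.56 and -0.68 in MEFs and -0.30 and -0.24 in iPS cells. The 2 promoter E-boxes of Figla lay in a window with 67.2% C and G and 14 CpG pairs, against 2 at Nlrp4f, 0 at Khdc3 and 5 at Zp3.

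Among the oocyte's secreted factors, Gdf9 was measured in every RNA, with small ratios. Its probe lies at chr11:53281228-53281287 (mm8, plus strand). The red signal was 146 and 134 in MEFs and 206 and 215 in iPS cells, and ES cells gave 101, 108, 110 and 102. The log2 ratios were -0.38 and -0.31 in MEFs (mean -0.35 ± 0.048) and 0.19 and 0.29 in iPS cells (mean 0.24 ± 0.048), which put ES cells between the other 2 and the iPS clone 1.50-fold above MEFs. Bmp15, the oocyte growth factor most like Gdf9, was not well above background on any array. Oosp1 has 2 probes that share 50 bases. Probe 2, at chr19:11734718-11734777 (mm8, minus strand), gave 78.0 and 76.5 in MEFs, well above backgrounds of 48 and 51, and 49.6 and 58.9 in iPS cells, not well above backgrounds of 55.5 and 54. ES cells were not well above background on any array with either probe. Oosp1 on probe 2 was thus at least 1.18-fold higher in MEFs than in ES cells, with a mean log2 ratio of 0.36 ± 0.062, while probe 1 was not well above background anywhere. Its neighbour and relative Oosp3 was likewise not well above background on any array.

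Of the nuclear and RNA-binding members, Npm2 rested on dim spots that were nevertheless measured on all 4 arrays in both channels. Its probe lies at chr14:69382528-69382587 (mm8, minus strand). The red signal was 108 and 97.8 in MEFs and 264 and 301 in iPS cells, and ES cells gave 49.2, 57.3, 61.2 and 54.6. The ratio over ES cells was -0.05 and -0.15 in MEFs and 1.15 and 1.29 in iPS cells, with a mean of 1.22 ± 0.054 in the latter, so the iPS clone stood 2.49-fold above MEFs. Its relative Npm3, a nucleolar chaperone found in most cells, was called higher in iPS cells over ES cells at 1.14 ± 0.23 (adjusted p = 0.00355 by limma). Its MEF ratios of -0.17 and 0.95 lay apart, and it was not called in MEFs over ES cells or in iPS cells over MEFs. The Npm1 spots were marked on 1 array for each of its probes, and it was not tested.

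Zar1, at chr5:72857432-72857570 (mm8, minus strand), was measured in ES cells and MEFs and barely in iPS cells. The red signal in MEFs was 118 over a background of 46 on the first array and 48.5 above a background of 56.5 on the second, well above background on both. It was 69.2 and 77.2 in iPS cells over backgrounds of 59.5 and 66, well above background on the second array alone. ES cells gave 67, 63, 68.1 and 65. Both iPS spots had been marked by the scanner software because their red local background stood apart from the other backgrounds, so they have no value under the rules used for the other members. The MEF ratios were -0.14 and -0.20. With spots of that mark kept, a choice made after the values were seen, the iPS ratios of Zar1 were -0.85 and -0.77. Under that choice both iPS ratios of Zar1 lay below both MEF ratios, unlike those of Khdc3, Zp3, Gdf9 and Npm2. Under the rules used for the other members, 44.2% of all genes measured had that order. The iPS spots of Zar1 lay near background.

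**Figure D3:**
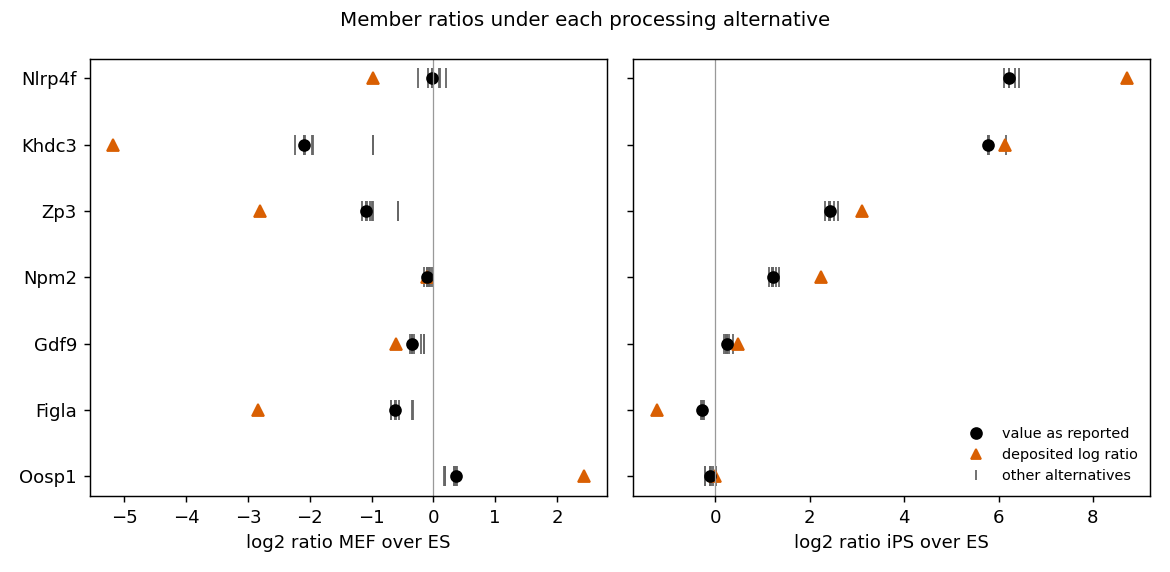
Log2 ratio over ES cells of 7 members in MEFs (left) and iPS cells (right) under each way of processing the arrays, with the reported value as a black circle and the authors' deposited log ratio as an orange triangle. In iPS cells Nlrp4f ranges from 6.11 to 8.72, Khdc3 from 5.77 to 6.16, Zp3 from 2.33 to 3.11 and Npm2 from 1.15 to 2.24, each above 0 throughout.

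A wider list of 94 other oocyte genes, chosen with the earlier results known, shows how much of the oocyte's set was measured at all. Of these, 83 were on the array under their names and 53 passed the low-signal filter. Of the 30 that did not, 29 were dim, and 25 were not well above background on any array, among them Nlrp5, Zp1, Zp2, Bmp15, Mos, Btg4, Oog2, Oog3 and Obox1. In iPS cells over ES cells 15 of the 53 were called higher and 3 lower, with a median of 0.38, against 9.1% of all genes higher and 12% lower (21.1% called in all) and a median of 0.01. In MEFs over ES cells 5 were called higher and 7 lower, with a median of -0.06, against 14% and 13.8% of all genes (27.8% in all) and a median of -0.01. In iPS cells over MEFs 18 were called higher and 6 lower, with a median of 0.45, against 17.1% and 19.1% of all genes (36.2% in all). Padi6, Obox6, Nlrp4a, Nobox, Bcl2l10 and Khdc1a passed the filter through iPS cells alone, and Lhx8, Bnc1 and E330034G19Rik through MEFs alone. A higher ratio in that RNA is no separate observation for them. Without the filter, 15 of 81 listed genes were called higher in iPS cells over ES cells and 3 lower. The median was then 0.106, against 0.015 for all genes, of which 3615 of 25727 were called. The comparisons over ES cells share the ES cell RNA as their reference.

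**Figure D4:**
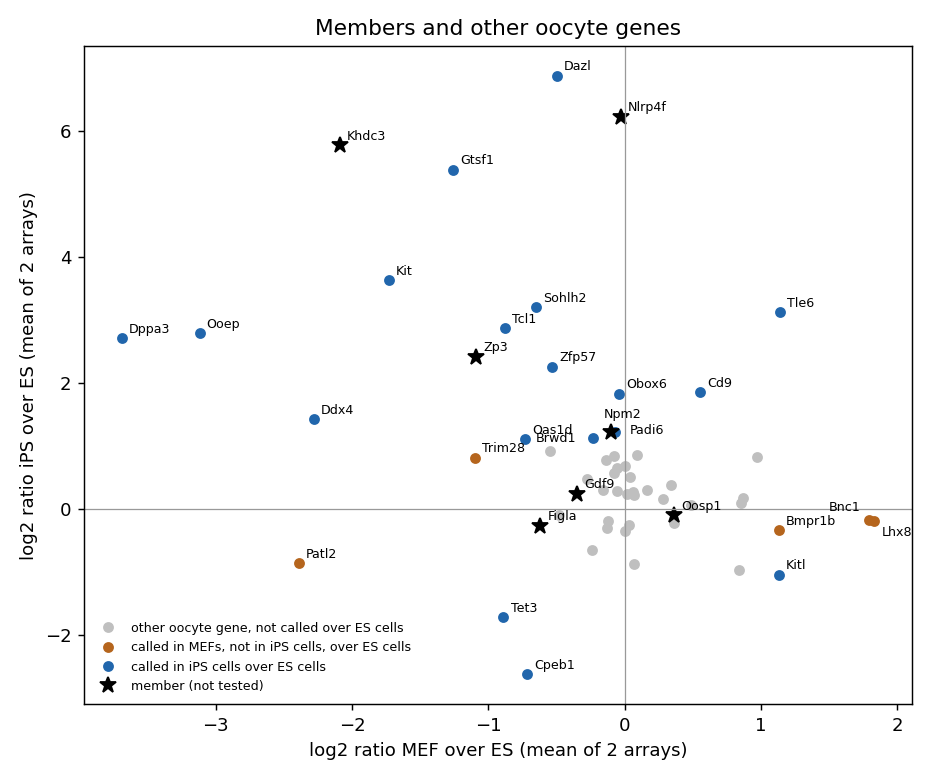
Mean log2 ratio over ES cells in MEFs (x axis) and in iPS cells (y axis) for the 53 other oocyte genes and the 7 members measured (stars), with each mean taken over 2 arrays. Dazl, Gtsf1 and Kit lie in the upper part with Nlrp4f and Khdc3, and Cpeb1, Tet3 and Kitl are the listed genes called lower in iPS cells.

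In the list of the subcortical maternal complex and the oocyte Nlrp genes, 3 of 7 measured genes were called higher in iPS cells over ES cells and none lower by limma (1 gene, Zbed3, lay lower at an unadjusted p under 0.05). The shares over all genes were 9.1% higher and 12% lower. Padi6, 1 of the 3, passed the filter through iPS cells alone. Ooep, a KH-domain subunit of the complex like Khdc3, rose to 2.79 ± 0.052 (adjusted p = 3.70e-08 by limma) and fell in MEFs to -3.12 ± 0.052. Tle6 rose in iPS cells to 3.12 ± 0.043 and in MEFs to 1.14 ± 0.043, the only one of the 7 called higher in MEFs. Padi6, a protein of the egg's cytoplasmic lattices, was not well above background in ES cells on any array and was at least 2.33-fold higher in iPS cells (fit 1.22 ± 0.074). Among the Nlrp relatives of Nlrp4f, Nlrp4a on its brighter probe was not well above background in ES cells on any array. On that probe it was at least 1.65-fold higher in iPS cells, while its second probe gave a log2 ratio of 0.30. Nlrp14 had 0.92 ± 0.044 in iPS cells over ES cells. Neither was called there, and Nlrp14 was at least 2.42-fold higher in iPS cells than in MEFs, a call that ended with normexp fitted over all spots (adjusted p = 0.0613 by limma). Nlrp2 had 0.38 and Zbed3 -0.87, neither called. Nlrp4b was not well above background on any array, Nlrp4c was dim, and Nlrp4d, Nlrp4e and Nlrp4g were not among the names on the array.

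Among zona and fertilization genes, the egg tetraspanin Cd9, which many other cells also carry, was the one gene measured and rose in iPS cells to 1.85 ± 0.047. Its second probe was dim and gave 0.00. Of 5 growth factor and receptor genes, Kit, the receptor on oocytes, rose to 3.63 ± 0.049 in iPS cells and was at least 3.31-fold lower in MEFs than in ES cells. Kitl, its ligand, fell in iPS cells to -1.05 ± 0.047 and rose in MEFs to 1.13 ± 0.047, with a second, dim probe at -0.19 and 0.11. The Gdf9 receptor Bmpr2 had -0.97 ± 0.046 in iPS cells, not called over ES cells, and was called lower in iPS cells than in MEFs at -1.81. Bmpr1b rose in MEFs to 1.13 ± 0.043 and was not well above background in iPS cells.

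Of 8 oocyte transcription factors measured, Sohlh2 rose to 3.20 ± 0.046 and Obox6 to 1.83 ± 0.048 in iPS cells, the latter over an ES signal well above background on 1 of 4 arrays, and none was called lower over ES cells by limma (3 lay lower at an unadjusted p under 0.05). Nobox, not well above background in ES cells, was at least 1.47-fold higher in iPS cells and not called. Lhx8 and Bnc1 were at least 3.55-fold and at least 3.47-fold higher in MEFs than in ES cells and were not well above background in iPS cells, although a second Lhx8 probe gave 0.38 in MEFs. Of 10 maternal chromatin and reprogramming genes, Dppa3, which protects the methylation of the maternal genome, rose to 2.71 ± 0.044 in iPS cells and fell to -3.69 ± 0.044 in MEFs. Zfp57, a factor of imprint maintenance, rose in iPS cells to 2.26 ± 0.044, and its partner Trim28 fell in MEFs to -1.10 ± 0.061. Brwd1 rose to 1.12 ± 0.053 on its brightest probe, with 5 other probes between 0.31 and 1.43, and Tet3, the dioxygenase of the zygote, fell to -1.72 ± 0.067, with other probes at -0.30 and 0.00.

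Of 8 RNA and meiotic regulators measured, the germ cell RNA-binding protein Dazl had the highest ratio of the whole list in iPS cells, 6.88 ± 0.055, and a second probe that lacked values in MEFs gave 3.99. The germ cell helicase Ddx4 rose to 1.42 ± 0.044 in iPS cells and fell to -2.28 ± 0.044 in MEFs. Cpeb1, which controls polyadenylation of stored RNAs, fell in iPS cells to -2.63 ± 0.061, and Patl2 fell in MEFs to -2.39 ± 0.044. Among 14 other oocyte-enriched genes, Gtsf1, a protein of the piRNA pathway, rose to 5.39 ± 0.061 on one probe and 4.91 on the other. Tcl1 rose to 2.87 ± 0.047 and Oas1d to 1.11 ± 0.046, and the remaining 11 were not called. Several of the genes called higher (Dppa3, Tcl1, Kit, Dazl, Ddx4) are known from early embryo or germ cells of both sexes as well as from oocytes.

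These calls depended on the background fit. With normexp fitted over all spots, marked ones included, none of the 53 genes was called in MEFs over ES cells by limma, while 3 had an unadjusted p under 0.05, and 53 of the 17172 genes of the array were called in place of 4767. In iPS cells over ES cells 14 genes were called under that fit, and the calls of Ooep (adjusted p = 0.0858), Kitl (0.0997), Dppa3 (0.131) and Ddx4 (0.172) by limma ended. Their mean ratios there were 2.79, -1.04, 2.71 and 1.42. The arrays did not move alike. With that fit and marked spots kept, every member probe had a log2 ratio between -0.022 and 0.001 on the array of MEF replicate 1. Khdc3 had -0.022 there, against -2.24 as reported. On the array of MEF replicate 2 it had -1.94 against -1.95. On the iPS arrays it had 5.79 and 5.76 against 5.79 and 5.77. With arrays centred on their median in place of loess, the median of all genes moved to 0.18 in both comparisons over ES cells, and calls in MEFs over ES cells stood at 9 higher and 6 lower in place of 5 and 7.

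Markers of other cells with oocyte-related genes were read beside these groups. Of 8 ovarian granulosa cell markers, 4 were measured. Amhr2 rose in iPS cells to 2.01 and Hsd17b1 fell to -1.10, Inha and Nr5a1 had -0.12 and 0.04, Fshr and Amh were dim with 1 of 2 iPS arrays well above background each, Cyp19a1 was not well above background in iPS cells, and Foxl2 had a marked spot. Of 8 testicular germ cell markers, 4 were measured and none was called in iPS cells over ES cells by limma, with ratios of 0.12 to 0.46, 2 of them at an unadjusted p under 0.05, and the other 4 (Prm2, Acrv1, Spata19, Odf1) were not well above background in iPS cells. Of 7 macrophage markers, 6 were measured and none was called higher in iPS cells by limma (1 lay higher at an unadjusted p under 0.05), while Cd68 was called lower in iPS cells (-1.05). In MEFs over ES cells Lyz2 (4.88) and Adgre1 (at least 2.43-fold) were called higher and Cd68 (-1.69) lower. A second Lyz2 probe gave 0.63 there and a second, dim Adgre1 probe -0.04. The part of other cells in the ratios of the members was not tested.

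The genes with 4 log2 ratios nearest to the median profile of the 7 measured members (-0.38 and -0.31 in MEFs, 1.15 and 1.29 in iPS cells) were Scgb3a1, Fbxo2, Proc, Zswim1 and U2surp, at Euclidean distances of 0.108 to 0.16 over the 4 arrays. Nearest to Nlrp4f was Xlr5a, a gene with near-identical copies on the X chromosome that its probe may not separate, at a distance of 0.602, with 5.90 and 6.01 in iPS cells. Nearest to Khdc3 was Cyct, the testis form of cytochrome c, at 1.01, with -1.66 and -1.63 in MEFs and 5.25 and 5.23 in iPS cells. Nearest to Zp3 was BC043476 (0.226) and nearest to Npm2 was Tex12 (0.063), a protein of the synaptonemal complex. Gdf9, Oosp1 and Figla lay nearest to Zfp169 (0.055), Try5 (0.064) and Zfp407 (0.036).

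The genes next to the members on the chromosome, taken from the order in RefSeq by a rule made after the values were known, gave values in both directions. Of 16 neighbours, 12 were measured, and in iPS cells over ES cells 1 was called higher and 2 lower, against 9.1% and 12% of all genes. Rab27a, next to Khdc3, was the one called higher, at 1.50 ± 0.046, while Rsl24d1 on the other side had 0.22 ± 0.043. Ssc4d and Dtx2 on either side of Zp3 had 0.58 and 0.56, not called. Zfp369 beside Nlrp4f had -0.43 and was called lower in MEFs at -1.39. The neighbours of Npm2, Fgf17 and Xpo7, had -1.50 and -0.72 in iPS cells, of which Fgf17 was called lower, and Shroom1 beside Gdf9 was called lower at -1.97.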

How the data were processed

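Scanner output of the 4 arrays comes from Agilent Feature Extraction 10.5.1.1, per the file headers. The deposited scanner files give mean spot intensity and local background intensity per channel, not normalized, with detection and outlier flags. The software's own log10 ratio (red over green) is deposited too, and the series matrix holds the same values (largest difference 0). Dyes were not swapped, and all arrays lay on 1 slide in 1 scan.

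Intensities were background-corrected in limma 3.58.1 (R 4.3.3, files read with version 1.17.8 of data.table) with normexp (offset 50), fitted over spots without an outlier mark, and normalized by loess (span 0.3), control spots at weight 0. Fitting over all spots was the alternative. The fit used here was adopted with the counts of both known. Marked and control spots were left out. Probes were kept where well above background in at least 1 RNA on all of its arrays and valued on all 4 (24874 of 41174). The brightest probe stood for a gene. Names came from RefSeq by accession (24490 probes), symbol (6234) or synonym (2379), otherwise from the array (8071).

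lmFit and eBayes fitted 1 coefficient per group (2 residual and 4.4 prior degrees of freedom), and p-values were adjusted over all genes. The number of arrays limits the precision. Where the dim side of a bound kept its own signal on every array, the bound below equals the fit. Bounds ("at least") use normalized log2 signals per channel after Aquantile, with the dim side at the lowest signal well above background or its own, whichever is higher, read against the ES channel of the same arrays, so that they cannot exceed the fit. Genes named with values were every member, called genes of each list (up to 6), relatives of members, markers and nearest genes. The members and lists were chosen with earlier results of these data known. The test was checked on simulated data. Promoter sequences are from RefSeq (GRCm38.p6), and probe sequences and mm8 coordinates from the array files.

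Labels give both groups replicate numbers 1 and 2 without saying that a number marks a shared culture or day. Alternatives were the background fit, the deposited ratio, median centring, Aquantile, the probe filter, the mean over probes, marked spots kept, each array left out and a replicate block.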

Additional observations from a re-analysis of the deposited data

Results flagged for a closer look

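Khdc3, Zp3, Gdf9 and Npm2 drew attention because both MEF arrays lay below ES cells and both iPS arrays above them. The iPS log2 ratio minus the MEF log2 ratio was 7.87 for Khdc3, 3.51 for Zp3, 1.31 for Npm2 and 0.59 for Gdf9. The difference was not tested, since these genes were picked with their values known, and 21.5% of all genes measured had the same arrangement. For Gdf9 and Npm2 the MEF arrays lay within 0.38 and 0.15 of ES cells.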

How the results depend on the processing

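Calls among the 53 other oocyte genes changed with the processing. The authors' deposited log ratio differs in background, normalization and software at once. In iPS cells over ES cells, 18 genes were called as reported, 33 with the deposited log ratio, 14 with normexp over all spots and 22 with median centring. In MEFs over ES cells, 12 became 22 with the deposited ratio and 0 by limma with normexp over all spots or with marked spots kept (3 and 4 at an unadjusted p under 0.05). In iPS cells over MEFs, 24 became 14 with normexp over all spots, 15 with marked spots kept and 15 with the strict probe filter, which tested 38 genes. Otherwise the cause was not tested. On the array of MEF replicate 1, 14 marked spots had a local background above 500, up to 694663. Leaving out each array gave 18 to 18, 12 to 14 and 24 to 25 calls, with the lone array assumed to vary like the other group. The replicate block gave 18, 12 and 24 calls. Replicate deviations correlated at -0.123 between the groups. The crossed block, added after the data were seen, also gave 18, 12 and 24. Either block is balanced over the groups and leaves every ratio as it was. The counts therefore cannot show whether a number marks a shared culture, and the reported fit used no block. No direction reversed among the called genes, and 37 of their 470 alternative values fell short of the call (17 with normexp over all spots, 17 with marked spots kept, 2 with median centring, for Trim28 and Kitl, and 1 with the mean over probes, for Brwd1). Of the members, Khdc3 in MEFs ranged from -5.18 to -0.98, Zp3 from -2.80 to -0.58, Figla from -2.84 to -0.34 and Oosp1 from 0.18 to 2.43, and Nlrp4f in MEFs took both signs (-0.97 to 0.20). The ends nearest 0 of Khdc3, Zp3 and Figla came with normexp over all spots, and the MEF arrays parted there. With marked spots kept as well, the 3 genes had -0.022, -0.008 and -0.010 on the array of MEF replicate 1. On that of MEF replicate 2 they had -1.94, -1.14 and -0.67, close to the reported values. Signals near background limit Nlrp4f in ES cells, Oosp1, Zar1 and Figla.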

Other observations

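The ES cell RNA in the green channel was the same line on every array, yet its Khdc3 signal was 1.98-fold higher, and its Nlrp4f signal 1.39-fold higher, on the arrays that carried iPS cells in red. Zp3 had 1.15-fold, Npm2 1.11-fold, Gdf9 and Figla 1.08-fold and Oosp1 0.987-fold. Among 15375 genes with ES cells well above background on all arrays, the median difference between iPS and MEF arrays was 0.07 on the log2 scale. In the 36 of them with an iPS over ES log2 ratio of at least 4, green was higher on the iPS arrays in 35, with a median of 0.33. In the 73 with a MEF over ES log2 ratio of at least 4, green was lower on the iPS arrays, and so higher on the MEF arrays, in 56, with a median of -0.17. The green signal of these genes thus ran with the red signal on the same array, and no dye-swapped or red-blank array was among those used here. The values were noticed in the data and are a description. Their part in any ratio was not tested.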
